A study of Drosophila melanogaster with 6 samples.

Results

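The Polycomb group genes examined here are the 10 genes E(z), esc, Su(z)12, Pc, ph-p, ph-d, Psc, Sce, pho and Asx, followed in mesodermal cells that overexpress the forkhead factor gene jumu and in control cells. They were chosen by symbol: a gene was measured where the platform annotation gave a probe set to that gene and no other. By that rule 7 of the 10 genes were measured, among 11982 genes with such a probe set. These were Su(z)12, E(z), esc, Psc, Pc, Sce and Asx, each with 1 probe set. The neighbouring X-linked genes ph-p and ph-d, and pho on chromosome 4, matched no probe set under that rule and were not analysed here.

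RNA was hybridised to 6 arrays, 3 for each genotype of Drosophila melanogaster. The overexpression group carried twi-GAL4 and UAS-2EGFP together with UAS-jumu, so that the twist driver made both GFP and Jumu in the mesoderm. The control group carried twi-GAL4 and UAS-2EGFP, and no insertion is named for it in the place of UAS-jumu. In both groups embryos were kept at 29 °C until late stage 11 or early stage 12, and cells bright in GFP were collected by sorting and lysed for total RNA. The driver is meant to be active in cells that express Twist; how many embryos were pooled, and whether the numbered replicates were separate collections, is not stated. The p-values therefore reflect only how far these arrays scatter, and that scatter may be technical.

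Polycomb group proteins keep developmental genes silent once early patterning has set their state, and the Hox genes of the fly embryo are the classical case. Polycomb repressive complex 2 (PRC2) methylates histone H3 at a lysine of its tail through the enzyme E(z), with Su(z)12 and Esc as subunits that the enzyme needs. Polycomb repressive complex 1 (PRC1) reads that mark through the chromodomain of Pc and places ubiquitin on histone H2A through the RING protein Sce and its partner Psc; the Polyhomeotic proteins encoded by ph-p and ph-d belong to the same complex. Pho binds DNA at Polycomb response elements (PREs) as part of the complex PhoRC, and Asx is the partner of the deubiquitinase of the complex PR-DUB.

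The transcript of jumu had log2 signals of 13.62, 13.35 and 13.69 in UAS-jumu arrays, against 11.35, 11.56 and 11.44 in control arrays, an increase of 2.11 ± 0.14 (limma SE, adjusted p = 0.0165), and its adjusted p was 0.0628 to 0.104 in fits with 1 array fewer. Fitted the same way, 398 genes, or 3.32%, passed an adjusted p of 0.05, 1.61% of all genes higher and 1.71% lower in UAS-jumu arrays. Over all probe sets the count was 519, and 0 to 21 in fits with 1 array fewer. Mesoderm markers were present: twi had 9.90 ± 0.13 in UAS-jumu arrays and 9.20 ± 0.28 in controls (SD, n = 3 each), and 4 of 10 measured markers rose and 0 fell. Neural transcripts were present too. The neuronal gene elav had a log2 signal of 12.44 ± 0.03 in UAS-jumu arrays and 13.32 ± 0.02 in controls (SD, n = 3 each), and 7 of 14 nervous system markers fell and 0 rose. The summed linear signal of that list was 17989 to 18320 in UAS-jumu arrays and 32233 to 33271 in controls. Of the epidermal and tracheal markers, 3 of 9 fell, with sums of 4385 to 4777 in UAS-jumu arrays and 8271 to 8552 in controls. Of 13 mitosis genes 11 rose, with sums of 42866 to 43673 in UAS-jumu arrays and 23385 to 24335 in controls. These counts of marker and mitosis genes were each 0 in every fit with 1 array fewer and under median centring or hybridization scaling. Under poly-A scaling 1 nervous system marker was called higher and 0 lower. With a variance prior that follows signal intensity, 13 of 13 mitosis genes and 9 of 10 mesoderm markers were called higher. Under that prior 11 of 14 nervous system markers and 7 of 9 epidermal and tracheal markers were called lower. It called 10.3% of all genes higher and 10.9% lower. The part of these shifts in the values of Polycomb group genes was not tested.

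None of the 7 measured Polycomb group genes passed the threshold of an adjusted p of 0.05 in limma, against 3.32% of all genes. At an unadjusted p of 0.05, 1 was higher (Su(z)12) and 0 were lower, where 10.8% of all genes were higher and 11.7% lower. Of the 7 log2 changes 6 were positive and 1 was negative, from -0.07 for Sce to 0.40 for Su(z)12; under median centring and under both scalings to spiked-in controls all 7 were positive. Their median was 0.14, beside -0.01 for all genes and for the 6464 genes with a mean log2 signal above 6. Changes were positive in 48.8% of all genes and in 48.9% of those above log2 6. With quantile normalization each of the 7 unadjusted 95% intervals stayed within 1 log2 unit of 0, a 2-fold change, with outer bounds of -0.46 and 0.72. That limit depended on the scaling. Under poly-A scaling the changes of Su(z)12, Psc, Pc and Asx were 1.32, 1.20, 1.17 and 1.06. Those of E(z), esc and Sce were 0.96, 0.96 and 0.85. The 7 transcripts were bright, with mean log2 signals over the 6 arrays between 8.73 and 10.78. Their SDs within a group ran from 0.05 to 0.35. Over all probe sets the median SD was 0.20 from log2 6 to 9 and 0.09 from 9 to 12. In RNA from a pool of cells, fewer cells of a type and less RNA per cell cannot be told apart.

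**Figure D1:**
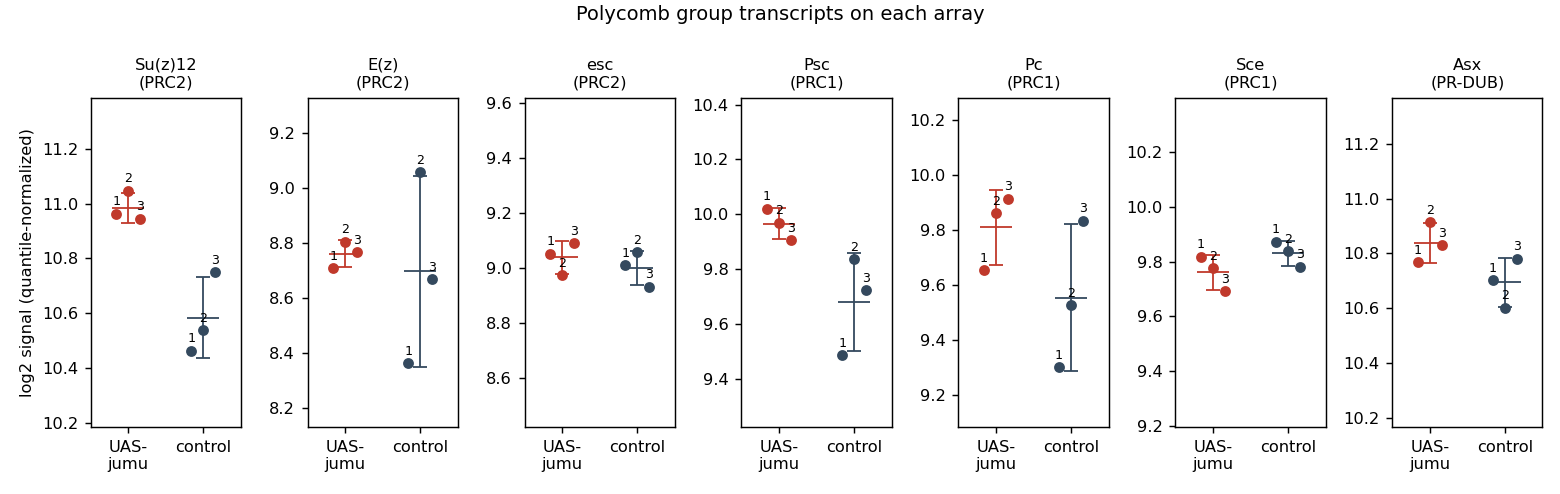
Log2 signal (quantile-normalized, y axis) of the 7 measured Polycomb group genes on each array, with UAS-jumu arrays left and control arrays right, and replicate numbers beside the points; each panel spans the same range of log2 units. Horizontal marks are means and bars are SDs (n = 3). The groups do not overlap for Su(z)12 and Psc, and control replicate 1 is the lowest of the 6 arrays for Su(z)12, E(z), Psc and Pc.

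Of the 3 PRC2 genes among the members, Su(z)12, which encodes the zinc-finger subunit, had the largest difference. Its log2 signals were 10.96, 11.05 and 10.94 in UAS-jumu arrays, against 10.46, 10.54 and 10.75 in control arrays. Every UAS-jumu array was thus above every control array, and the nearest pair lay between UAS-jumu replicate 3 and control replicate 3. The difference was 0.40 ± 0.12 (limma SE), a 1.32-fold higher signal with a 95% interval of 1.07 to 1.63, and its adjusted p was 0.163 (unadjusted 0.0201). Whether this counts as a call depended on how the spread was modelled. With a variance prior that follows signal intensity, the SE of Su(z)12 was 0.07 and its adjusted p 0.000530, and it stayed past the threshold under that prior in each of the 6 fits with 1 array fewer (adjusted p up to 0.00583). Under that prior 10.3% of all genes were called higher and 10.9% lower, shares that include genes much dimmer than the members. Su(z)12 also passed when probe sets with a mean log2 signal of 6 or less, or those in the lower part of the signal range, were left out of the fit (adjusted p = 0.0162 and 0.0285). Those fits called 1420 and 1241 probe sets higher, and 1510 and 1339 lower, where the main fit called 255 and 264. Of the probe sets above log2 6, 3190 lay from 6 to 9, 4034 from 9 to 12 and 724 above 12.

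The gene of the methyltransferase itself, E(z), had log2 signals of 8.71, 8.81 and 8.77 in UAS-jumu arrays, against 8.36, 9.06 and 8.67 in control arrays. Its UAS-jumu values lay inside the control range. The UAS-jumu arrays were close together (SD 0.05) and the control arrays were far apart (SD 0.35), so that the difference of 0.06 ± 0.20 (limma SE, adjusted p = 0.909) had the widest interval of the 7, from -0.46 to 0.58 log2 units. Control replicate 1 set its sign: without that array the difference was -0.10.

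The third PRC2 gene, esc, encodes a WD-repeat protein that is laid down in the egg and acts early. Its log2 signals were 9.05, 8.97 and 9.09 in UAS-jumu arrays, against 9.01, 9.06 and 8.93 in control arrays. The groups overlapped, with UAS-jumu replicate 3 the highest and control replicate 3 the lowest, and the difference was 0.04 ± 0.10 (limma SE, adjusted p = 0.881), with a 95% interval of 0.86-fold to 1.22-fold.

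Within PRC1, Psc and Pc had positive differences and Sce did not. Psc, a RING-finger protein that compacts chromatin, had log2 signals of 10.02, 9.97 and 9.91 in UAS-jumu arrays, against 9.49, 9.84 and 9.72 in control arrays. The groups did not overlap, although UAS-jumu replicate 3 and control replicate 2 lay close together. The difference was 0.28 ± 0.13 (limma SE), or 1.22-fold with a 95% interval of 0.97 to 1.53, with an adjusted p of 0.328. With the intensity-dependent prior the adjusted p was 0.0358, but of the 6 fits that left out 1 array under that prior only the one without control replicate 2 kept it under 0.05 (adjusted p 0.0131, and up to 0.183 in the others). Without control replicate 1 the difference was 0.19.

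Pc, the chromodomain reader for which the group is named, had log2 signals of 9.65, 9.86 and 9.91 in UAS-jumu arrays, against 9.30, 9.53 and 9.83 in control arrays. Control replicate 3 lay among the UAS-jumu arrays, and the other control arrays lay below all of them. The difference of 0.26 ± 0.18 (limma SE, adjusted p = 0.523) had a 95% interval of 0.87-fold to 1.64-fold. It was 0.13 without control replicate 1 and 0.40 without control replicate 3.

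Sce, the catalytic RING protein of PRC1, was the 1 member with a lower mean in UAS-jumu arrays. Its log2 signals were 9.82, 9.78 and 9.69 in UAS-jumu arrays, against 9.87, 9.84 and 9.78 in control arrays. The groups overlapped, and the difference was -0.07 ± 0.09 (limma SE, adjusted p = 0.769), with a 95% interval of 0.80-fold to 1.13-fold. Its sign turned under median centring (0.23) and under hybridization and poly-A scaling (0.52 and 0.85). The interval of Sce was the narrowest of the 7, with SDs of 0.06 in UAS-jumu arrays and 0.05 in controls.

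Asx, the PR-DUB subunit, had log2 signals of 10.77, 10.91 and 10.83 in UAS-jumu arrays, against 10.70, 10.60 and 10.78 in control arrays. UAS-jumu replicate 1 fell just below control replicate 3, and the groups otherwise kept apart. The difference was 0.14 ± 0.10 (limma SE, adjusted p = 0.545), with a 95% interval of 0.92-fold to 1.33-fold.

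Groups that did not overlap, with UAS-jumu arrays higher, were seen in 2 of the 7 members, Su(z)12 and Psc, and in 16.6% of all genes. Control replicate 1 gave the lowest of the 6 values for 4 of the 7 genes, Su(z)12, E(z), Psc and Pc, while for Sce it gave the highest. The share of all genes with their lowest value on that array was not computed, so this count has no background.

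Differences between subunits of a complex were also taken within each array from the deposited log2 values, where the scaling of an array cancels. Their absolute size has no meaning, since probe sets differ in brightness. Su(z)12 minus esc was 1.89, 2.07 and 1.87 in UAS-jumu arrays, against 1.45, 1.49 and 1.82 in control arrays, 0.36 higher in UAS-jumu arrays. Su(z)12 minus E(z) was 2.25, 2.24 and 2.20 in UAS-jumu arrays, against 2.07, 1.49 and 2.07 in control arrays, also higher by 0.35. Psc minus Sce was 0.21, 0.19 and 0.22 in UAS-jumu arrays, against -0.39, -0.00 and -0.05 in control arrays, higher by 0.35. In these 3 of the 6 pairs compared the groups did not overlap, and each had an exact permutation p of 0.10 (two-sided, n = 3 each), the smallest that 3 arrays against 3 allow, or 0.20 after Benjamini-Hochberg adjustment over the 6 pairs. This design cannot pass the threshold in that test. Each pair without overlap holds Su(z)12 or Psc, whose own groups did not overlap, so these pairs are not a separate result. The share of gene pairs without overlap over the whole series was not computed. Pc minus Sce was 0.32 higher with overlap (exact permutation p = 0.20, n = 3 each), and the pairs E(z) and esc, and Psc and Pc, differed by 0.00 and 0.03.

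The scaling of the arrays moved all of these changes together. The deposited arrays had medians of 5.43, 5.30 and 5.09 in UAS-jumu arrays and 5.61, 5.64 and 5.38 in controls. Relative to quantile normalization, median centring raised the median change of genes with a mean log2 signal above 6 to 0.26, and scaling to the spiked-in hybridization and poly-A controls raised it to 0.55 and 0.88. The median of the 7 Polycomb group genes moved with it, to 0.45, 0.73 and 1.06. Set against the median of genes above log2 6, the members' median was 0.15 higher with quantile normalization and 0.18 higher under the other scalings. Sce was below that median and the 6 other members above it, both with quantile normalization and without that step. Median centring and both control scalings shift every gene by the same amount, so this order could not differ under them. With poly-A scaling all 7 members passed the threshold as higher, in a fit that called 36.4% of all genes higher and 0.459% lower.

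**Figure D2:**
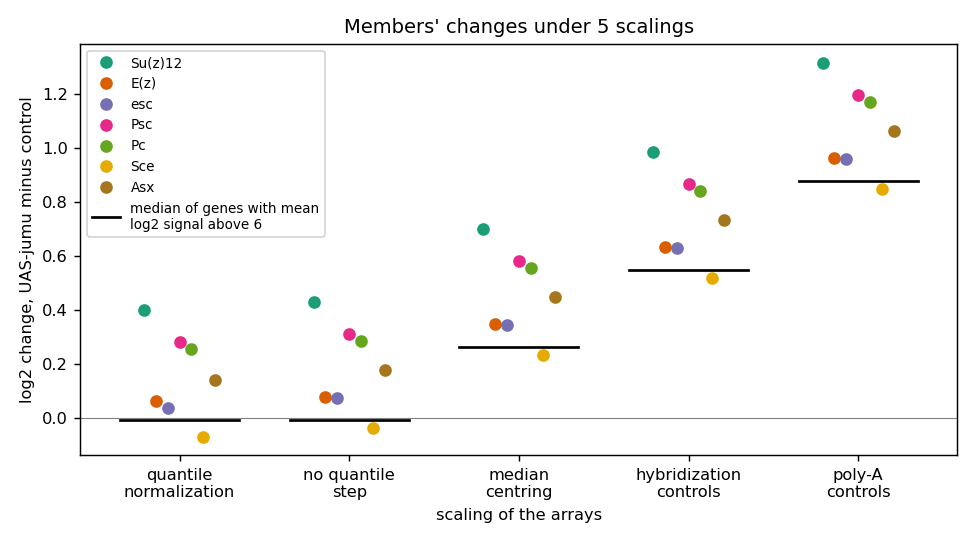
Log2 change (UAS-jumu minus control, y axis) of the 7 measured Polycomb group genes under 5 scalings of the arrays (x axis); horizontal lines are the median change of genes with a mean log2 signal above 6. The points and the line move up together, with Su(z)12 highest and Sce lowest under each scaling. All scalings but quantile normalization share that order by construction.

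The other genes of the Polycomb system were followed through 3 lists: partners of PRC2, partners of PRC1, PhoRC and PR-DUB, and recruiter factors of PREs. Of 19 measured genes on these lists 0 rose and 0 fell in limma, against 3.32% of all genes. At an unadjusted p of 0.05, 5 were higher and 1 was lower, against 10.8% and 11.7% of all genes, and their median change was 0.15. With the intensity-dependent prior 7 were called higher and 1 lower, against 10.3% and 10.9% of all genes. The 7 were escl, Pcl, Jarid2, Sfmbt, mxc, lolal and z, and the 1 was corto. None of the 19 had a mean log2 signal below 6, whereas only 6464 of the 11982 genes were above it. These shares are therefore not like for like.

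**Figure D3:**
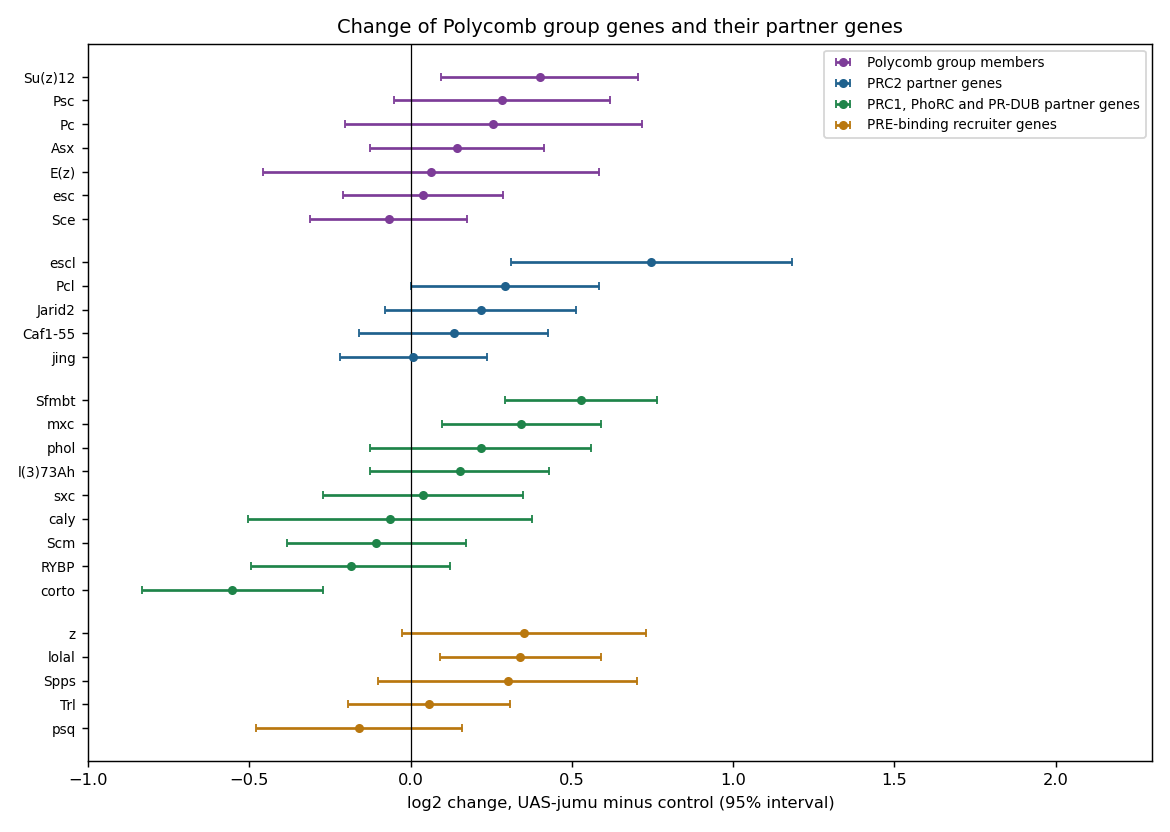
Log2 change (UAS-jumu minus control, x axis) with its unadjusted 95% interval from limma for the 7 measured Polycomb group genes and the 19 measured partner and recruiter genes (rows, coloured by list). Intervals of Su(z)12, escl, Pcl, Sfmbt, mxc, lolal and corto exclude 0 before adjustment, and no gene shown had an adjusted p under 0.05.

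All 5 measured PRC2 partner genes had positive changes (median 0.22). The gene escl, a close paralog of esc whose product can take its place in PRC2, had log2 signals of 7.35, 7.49 and 7.88 in UAS-jumu arrays, against 6.88, 6.82 and 6.79 in control arrays. Every UAS-jumu array lay above the controls, unlike for esc itself, and the difference was 0.75 ± 0.17 (limma SE, adjusted p = 0.0997). Pcl, a PHD-finger subunit of PRC2, differed by 0.29 ± 0.11 (limma SE, adjusted p = 0.254). Jarid2, which defines another form of PRC2, differed by 0.22 ± 0.11 (adjusted p = 0.393).

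Among 9 measured partners of PRC1, PhoRC and PR-DUB, 5 changes were positive and 4 negative (median 0.04). Sfmbt, which joins Pho in PhoRC, had log2 signals of 10.67, 10.65 and 10.61 in UAS-jumu arrays, against 10.18, 10.08 and 10.09 in control arrays. This was 0.53 ± 0.09 higher (limma SE), with an adjusted p of 0.0613. The gene phol, a paralog of pho, differed by 0.22 ± 0.13 (adjusted p = 0.466), and mxc, a histone locus gene with Polycomb-like mutant phenotypes, by 0.34 ± 0.10 (adjusted p = 0.145). In the opposite direction went corto, a chromodomain gene that interacts genetically with both Polycomb and trithorax genes. Its log2 signals were 12.56, 12.57 and 12.78 in UAS-jumu arrays, against 13.15, 13.17 and 13.24 in control arrays. The difference was -0.55 ± 0.11 (limma SE, adjusted p = 0.0794), and its sign turned with poly-A scaling (0.29). With the intensity-dependent prior the limma adjusted p was 8.9e-07 for corto and 1.1e-05 for Sfmbt.

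Of the 5 measured recruiter factors of PREs, 4 had positive changes (median 0.30). The BTB gene lolal differed by 0.34 ± 0.10 (limma SE, adjusted p = 0.149), the zeste gene z by 0.35 ± 0.15 (adjusted p = 0.286) and Spps, an Sp1-like factor, by 0.30 ± 0.16 (adjusted p = 0.386). For psq, which binds GAGA motifs, the difference was -0.16 ± 0.12 (adjusted p = 0.568), and its sign turned with median centring and with both control scalings.

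Trithorax group genes, which counteract Polycomb silencing, had 1 of 24 measured members past the threshold as higher, against 1.61% of all genes. At that threshold the count was near the background. At an unadjusted p of 0.05 in limma, 8 were higher and 0 lower, against 10.8% and 11.7% of all genes. With the intensity-dependent prior 9 were called higher and 1 lower, against 10.3% and 10.9% of all genes. None of the 24 had a mean log2 signal below 6, so these shares too are not like for like. Bap170, a subunit of the Brahma remodelling complex, rose: its log2 signals were 11.26, 11.35 and 11.25 in UAS-jumu arrays, against 10.56, 10.66 and 10.58 in control arrays, 0.68 ± 0.09 higher (limma SE, adjusted p = 0.0403). That call was lost in each fit with 1 array fewer (adjusted p 0.116 to 0.150), under median centring (0.137) and under hybridization scaling (0.0933). Of the 3 trithorax genes with the next smallest p, none of which passed, Snr1 differed by 0.44 ± 0.10, mor by 0.39 ± 0.09 and polybromo by 0.60 ± 0.15, with adjusted p of 0.0942, 0.0993 and 0.118. Of the 24 changes 21 were positive and 3 negative, where 48.9% of genes above log2 6 had positive changes. Their median was 0.19, against 0.14 for the 7 Polycomb group genes.

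Genes that Polycomb complexes are known to silence formed the last list. Of 16 measured target genes 1 fell and 0 rose, against 1.71% and 1.61% of all genes, 10 changes were negative and 6 positive, and the median was -0.37. With the intensity-dependent prior 6 were called lower and 1 higher, against 10.9% and 10.3% of all genes. The 1 called higher was Antp by its brightest probe set. Another probe set of Antp was lower by 0.58 (limma with that prior, adjusted p = 2.0e-05). Under poly-A scaling 4 of the 16 were called higher and 0 lower, against 36.4% and 0.459% of all genes. Dll, the homeobox gene of limb primordia, fell, with log2 signals of 6.50, 6.49 and 6.77 in UAS-jumu arrays, against 7.88, 7.81 and 7.77 in control arrays (-1.23 ± 0.12 limma SE, adjusted p = 0.0271); its call too was lost in each fit with 1 array fewer (adjusted p 0.0901 to 0.117), and with median centring (0.154) and control scalings (0.155 for hybridization and 0.195 for poly-A controls). The homeobox gene en, a well-studied PRE-bearing locus, had 9.20, 9.76 and 9.43 in UAS-jumu arrays, against 10.52, 10.59 and 10.71 in control arrays (-1.14 ± 0.18, adjusted p = 0.0505). The gene inv, next to en and of related sequence, differed by -1.04 ± 0.21 (adjusted p = 0.0836), and the Pax6 gene toy by -1.16 ± 0.19 (adjusted p = 0.0578). Beside these values stand the sums of nervous system markers given above, which were lower in UAS-jumu arrays, and their part in the lower target signals was not tested.

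The 4 Hox genes measured on that list, named after their values were seen, gave no common direction. The other Hox genes of the list, lab, Ubx, abd-A and Abd-B, matched no single-gene probe set and were not analysed. The probe set used for Antp, the brightest of its 3, was 0.25 ± 0.10 higher (limma SE, adjusted p = 0.259), while the others differed by -0.58 and 0.54, so the probe sets of Antp disagreed. Scr differed by 0.15 ± 0.15 (adjusted p = 0.666) and Dfd by 0.01 ± 0.21 (adjusted p = 0.992). The signal of pb was dim, 3.99 ± 1.77 in UAS-jumu arrays and 4.50 ± 0.67 in controls (SD, n = 3 each).

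**Figure D4:**
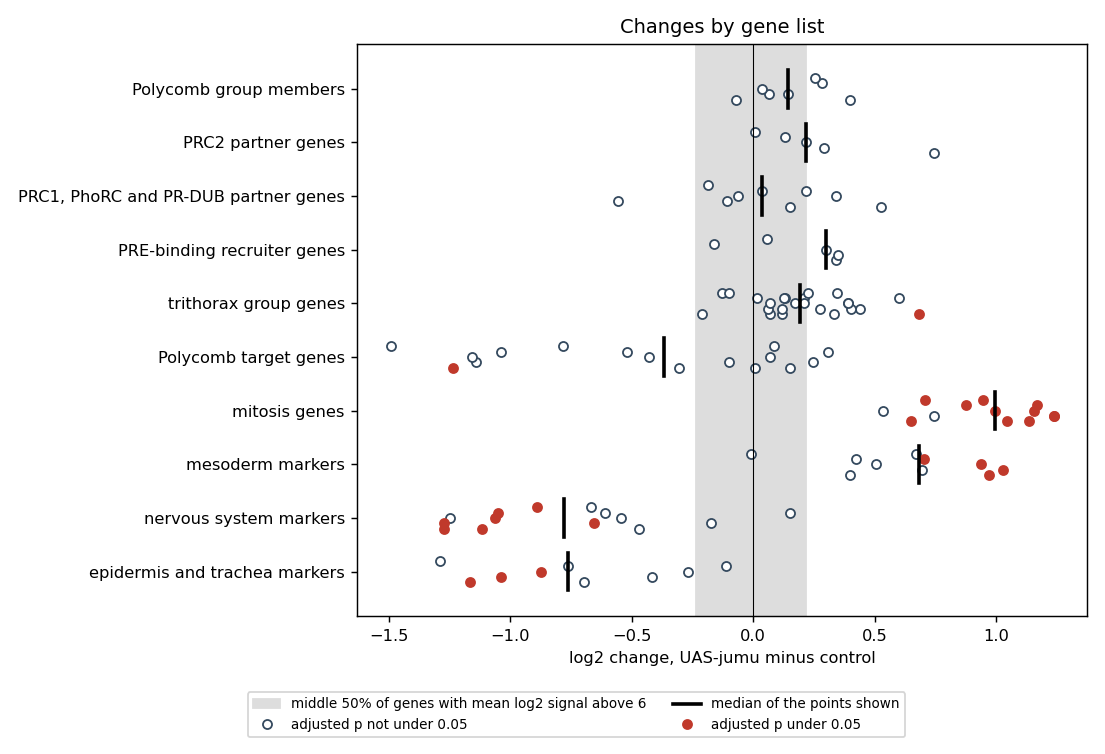
Log2 change (UAS-jumu minus control, x axis) of each measured gene by list (rows); filled points had an adjusted p under 0.05 in limma, open points did not, black bars are list medians and the grey band runs from the lower to the upper quartile of genes with a mean log2 signal above 6. The 7 Polycomb group genes lie between -0.07 and 0.40 with none filled, while 11 of 13 mitosis genes are filled on the higher side and 7 of 14 nervous system markers on the lower side.

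Some genes had array profiles close to those of the Polycomb group genes. Likeness was measured as the root mean square difference between 2 profiles over the 6 arrays after each was centred on its own mean, among 3949 genes with a mean log2 signal above 9. The closest gene to Su(z)12 was cathD, at 0.04 log2 units, the closest to Psc was MrgBP at 0.04 and the closest to Pc was Smyd4-4 at 0.05. For the members with small changes the closest were InR for esc (0.02), gammaCOP for Sce (0.01) and dgt1 for Asx (0.02). E(z) was below the signal level set for this comparison.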

How the data were processed

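RNA of sorted cells was measured on 6 Affymetrix arrays, grouped by genotype from the sample titles. The authors deposited log2 signals per probe set, made with the Bioconductor package affy per the submitters' processing notes; which version and settings were used, and the genome build, is not given in the sources used here. That the scale is log2 was inferred from values between -1.73 and 16.4. Array medians differed, so quantile normalization was applied here. Of 18952 probe sets 183 controls were left out. The other 18769 entered limma 3.58.1 under R 4.3.3 (functions lmFit and eBayes, the default variance prior, 0.94 prior degrees of freedom, two-sided, no covariates), with p adjusted by Benjamini-Hochberg over all of them. A gene was represented by its brightest single-gene probe set. Symbols and chromosomes come from a RefSeq table (Release 6 names), which matched 13544 of 13647 single-gene probe sets; 3 listed symbols were updated through it. No coordinates or sequences are given. Median SD between replicates was 1.13 log2 units from signals of 3 to 6, 0.20 from 6 to 9 and 0.09 from 9 to 12, and the number of arrays limits precision.

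The members and gene lists were chosen with earlier results of these data known. The rule for named genes was: all measured members, jumu, up to 4 genes with the smallest p of each list, and the gene most like each member above log2 9; twi, elav and the Hox genes were added after their values were seen. Alternatives were 4 other scalings, 2 signal filters, a prior that follows intensity (plain and robust), array weights, a replicate block, each array left out, and averaging the probe sets of a gene; combinations of the intensity trend with left-out arrays, the block and median centring were chosen after seeing the data.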

Additional observations from a re-analysis of the deposited data

How the results depend on the processing

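The count of Polycomb group genes past the threshold was 0 as reported. It remained 0 with median centring, no quantile step, hybridization scaling, array weights, the replicate block and without any 1 array. Averaging the probe sets of a gene could not change that count, since each measured member had 1 probe set. The count was 7 with poly-A scaling, 1 with either filter on dim probe sets, and 2 with the intensity trend (plain, robust or with the replicate block). It was 4 with the trend and median centring, and 1 to 2 with the trend and 1 array left out. Of all genes 36.4% were called higher with poly-A scaling and 10.3% with the plain trend. No such share is given for fits that combine the trend with another step, so the member counts there have no background. The median change of the Polycomb group genes, 0.14 as reported, was 0.45, 0.73 and 1.06 with median centring, hybridization and poly-A scaling.

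Over all probe sets 519 calls became 20 with median centring, 26 with hybridization scaling, 5580 with poly-A scaling, 2930 above log2 6, 2580 above the median signal, 3096 and 3094 with the trend (plain and robust), 0 with the replicate block (no pairing is given by the labels, and same-numbered arrays correlated at -0.01 to 0.01 in their deviations) and 0 to 21 without 1 array. The change of jumu lost its call with median centring (2.33, adjusted p = 0.0600), the replicate block (2.11, adjusted p = 0.238) and without any 1 array (2.05 to 2.23).

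Signs turned for E(z) without control replicate 1 (-0.10 with either prior; 0.25 at most without another array), Sce with median centring (0.23 with either prior), hybridization (0.52) and poly-A scaling (0.85), corto with poly-A scaling (0.29), psq with these 3 scalings (0.15, 0.43 and 0.76), gammaCOP likewise (0.22, 0.51 and 0.84), InR when 1 array was left out (-0.00272 to 0.0843), Dfd with no quantile step (-0.0369) or 1 array left out (-0.0991 to 0.208) and pb with poly-A scaling (0.0689) or 1 array left out (-1.11 to 0.505). Scaling effects follow from the shift of all genes; the cause of the others was not tested. Probe sets under log2 6 limit what the default prior can call.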
